A study of Mus musculus with 15 samples.

Results

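The Serpina3 genes of the mouse form a tandem cluster of serine protease inhibitor (serpin) genes on chromosome 12. The 7 genes described here, *Serpina3c*, *Serpina3f*, *Serpina3g*, *Serpina3h*, *Serpina3i*, *Serpina3m* and *Serpina3n*, were taken by symbol. The transcripts of the data were assigned to 35142 genes. Of the 7 members, 6 had a transcript in the tables and 2, *Serpina3n* and *Serpina3i*, were expressed highly enough to be tested. *Serpina3h* is annotated as a non-coding RNA and a pseudogene, no transcript of it was matched, and it was not analysed here. Expression was measured by bulk RNA-seq in primary cerebellar cultures from wild-type C57BL/6 pups at postnatal days 0 to 4, plated at 90000 cells per well and kept for 14 days in vitro. The cultures were left unstimulated or received recombinant murine IL-12p70 at 30 ng/ml or 100 ng/ml for 18 h, with 5 cultures per group and 15 in all. The comparison asks which transcripts of cells in these cultures change when IL-12 is added.

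Each culture had 25746096 to 38435850 assigned reads, the deepest being unstimulated culture 1. The labels call the cells neurons, but glial transcripts predominated. The summed level of 15 markers of cerebellar neurons was 195 to 260 TPM (transcript level scaled for length and library size) over the 15 cultures, against 3839 to 5308 TPM for 11 astrocyte markers and 7184 to 12675 TPM for 14 microglial and macrophage markers, although 1 of 15 listed microglial markers was not in the tables. The 10 markers of fibroblasts and meninges summed to 2588 to 3212 TPM over the cultures. The 8 hepatocyte markers summed to 117 to 505 TPM, with the median marker at 0.0608 to 0.102 TPM in the group means. In such mixed cultures, a change in the number of cells of a type and a change in RNA per cell cannot be told apart. The labels number the cultures without saying whether they came from separate preparations, so p-values measure the spread between these cultures, which may be technical.

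Serpins inhibit proteases by a bait mechanism: the target cleaves an exposed reactive centre loop, the serpin then refolds, and the protease stays bound to it. Humans carry SERPINA3, whose product, antichymotrypsin, is an acute phase protein, and rodents expanded this locus into a family whose members differ most in that loop. The product of *Serpina3n* is secreted by hepatocytes and, in the brain, by reactive astrocytes and stressed oligodendrocytes, and is known to inhibit granzyme B, neutrophil elastase and cathepsin G. *Serpina3g* encodes Spi2A, an intracellular inhibitor of lysosomal cathepsins described in lymphocytes. IL-6 family cytokines, glucocorticoids and NF-kB are known inducers of genes in this family.

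In GENCODE M39 on the GRCm39 build, genes named Serpina3 occupied chr12:104078983-104380597. *Serpina3c* lies on the minus strand at chr12:104110471-104141177. The others lie on the plus strand, in the order *Serpina3f* (chr12:104180772-104187388), *Serpina3g* (chr12:104202386-104208203), *Serpina3i* (chr12:104229363-104238677), *Serpina3m* (chr12:104304745-104361078) and *Serpina3n* (chr12:104372810-104380597), with *Serpina3h* between *Serpina3g* and *Serpina3i*.

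The coding sequences of the members resembled each other closely, which bears on how reads can be assigned. *Serpina3n* and *Serpina3i*, the genes that passed the expression filter, had 85.05% identical bases over their aligned coding sequences. The highest identity among the 6 coding genes was 92.13%, between *Serpina3f* and *Serpina3i*. The stretches below are 90 bases of coding sequence from the hinge codons of the reactive centre loop onward, each within an exon, and are shown because the loop sets which protease is bound. Capitals mark bases unlike *Serpina3n* at the same position.
Serpina3n, chr12:104379707-104379796, plus strand: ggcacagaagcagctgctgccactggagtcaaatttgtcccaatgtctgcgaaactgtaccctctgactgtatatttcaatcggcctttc
Serpina3i, chr12:104234739-104234828, plus strand: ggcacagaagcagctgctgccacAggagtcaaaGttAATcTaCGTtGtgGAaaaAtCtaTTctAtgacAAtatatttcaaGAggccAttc
Serpina3g, chr12:104207331-104207420, plus strand: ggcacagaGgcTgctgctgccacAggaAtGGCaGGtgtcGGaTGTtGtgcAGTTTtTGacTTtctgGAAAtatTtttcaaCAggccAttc
Serpina3m, chr12:104360028-104360117, plus strand: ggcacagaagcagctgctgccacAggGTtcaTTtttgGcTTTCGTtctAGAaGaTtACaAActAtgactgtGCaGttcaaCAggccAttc
The differences clustered after the hinge. *Serpina3i* differed from *Serpina3n* at 22 of the 90 bases, *Serpina3m* at 28 and *Serpina3g* at 32. Aligned with gaps, the loop of *Serpina3i* was 75.56% identical to that of *Serpina3n* and the rest of its coding sequence 85.8%. The same pair of values was 68.89% and 86.43% for *Serpina3m*, and 71.6% and 87.03% for *Serpina3c*. For *Serpina3g* it was 70.45% and 88.53%, and for *Serpina3f*, 78.16% and 86.6%. In all 5 comparisons the loop was thus less alike than the rest.

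Among the transcripts quantified, read assignment was less ambiguous than the identities alone would leave it. Of the 2152 windows of 100 bases in the *Serpina3n* transcript, 1 also occurred in a transcript of another gene, *Serpina3g*. In the coding *Serpina3i* transcript 49 of 2190 such windows were shared (2.24%), with *Serpina3g* and *Serpina3f*. In the *Serpina3i* transcript with a retained intron 8.14% were shared. The share was 1.87% in the main *Serpina3g* transcript, 6.09% in *Serpina3m*, all with *Serpina3k*, and 0 of 4305 windows in *Serpina3c*. At 31 bases, the shared part was 19.5% for *Serpina3n*, 17.6% for the coding *Serpina3i* transcript, 27.1% for *Serpina3g* and 34.6% for *Serpina3m*. It was 48.9% for the *Serpina3i* transcript with a retained intron. The study's methods give unpaired reads of 100 bases, which the longer windows match. *Serpina3h* was not quantified, so sharing with it is not in these counts. Its transcript Serpina3h-211 shared 15 windows of 100 bases with *Serpina3i* and 36 with *Serpina3g*. Whether reads of *Serpina3h* were assigned to these genes was not tested. The annotated *Serpina3n* transcript is 2251 bases in M39 against 2064 bases in the deposited tables. For *Serpina3c* these lengths are 4404 and 2213 bases, so its windows cover more sequence than was quantified.

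*Serpina3n* transcripts were abundant in every culture and rose with IL-12 at both concentrations. Unstimulated cultures 1 to 5 had 378, 417, 339.6, 299.9 and 369 CPM (reads scaled to library size). At 30 ng/ml the cultures had 597, 614, 667, 546 and 566 CPM. At 100 ng/ml they had 575, 508, 562, 546 and 529 CPM. The lowest stimulated culture, at 508 CPM, lay above the highest unstimulated one, at 417 CPM, so the stimulated and unstimulated cultures did not overlap. Group means were 361 ± 43.8, 598 ± 46.9 and 544 ± 26.5 CPM (SD, n = 5 each) in that order. The fold change was 1.66 at 30 ng/ml (95% interval 1.49 to 1.85) and 1.51 at 100 ng/ml (1.36 to 1.68). By edgeR's quasi-likelihood test with Benjamini-Hochberg adjustment over 15360 genes, the false discovery rate (FDR) was 2.67e-05 and 8.60e-05. Ranked by FDR, *Serpina3n* was 6 of 15360 genes at 30 ng/ml and 43 at 100 ng/ml.

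*Serpina3i* was a rare transcript that also rose at both concentrations. Unstimulated cultures 1 to 5 had 37, 28, 18, 14 and 19 reads, or 0.965, 1.002, 0.656, 0.501 and 0.725 CPM. At 30 ng/ml there were 32, 36, 64, 53 and 42 reads, or 1.05, 1.25, 2.39, 1.82 and 1.48 CPM. At 100 ng/ml there were 51, 50, 76, 41 and 67 reads, or 1.60, 1.95, 2.46, 1.38 and 1.95 CPM. No stimulated culture overlapped the unstimulated ones in CPM, although the highest unstimulated culture (1.002 CPM) and the lowest at 30 ng/ml (1.05 CPM) were close, and the stimulated groups overlapped each other. The fold change was 2.04 at 30 ng/ml (95% interval 1.43 to 2.92), and the edgeR FDR was 0.0157. At the higher concentration it was 2.39 (1.68 to 3.397), with an FDR of 0.00328. The call at 30 ng/ml was lost when only protein-coding transcripts were summed (log2 fold change 0.87, FDR = 0.0504).

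Both members tested passed the FDR threshold of 0.05 at each concentration, where 9.77% of all genes tested passed at 100 ng/ml (5.83% upwards) and 7.87% at 30 ng/ml (4.16% upwards). Since only genes above the filter could be tested, this count says nothing of the other members. *Serpina3i* met the filter of 1 CPM in 2 cultures through the stimulated cultures, as at most 1 unstimulated culture reached 1 CPM, so the count of 2 is no support for a change of the cluster. In the fit without a filter its log2 fold change was 1.03 (edgeR FDR = 0.0133) and 1.27 (FDR = 0.00164) at the lower and higher concentration.

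**Figure D1:**
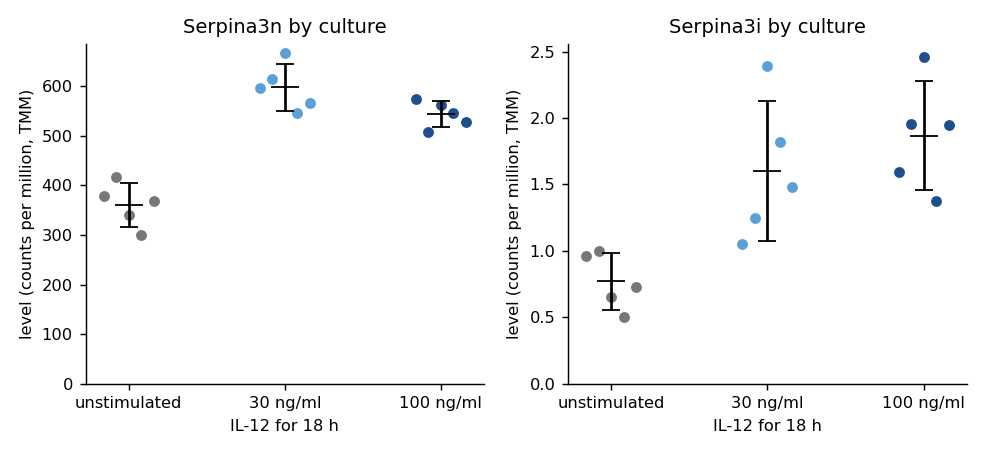
Level of *Serpina3n* (left) and *Serpina3i* (right) in CPM, scaled by TMM factors, in each of 15 cultures. Points are cultures, the black mark is the mean and the bar the SD of 5 cultures. All 10 stimulated cultures lie above all unstimulated ones for both genes, at scales that differ from 667 CPM to 2.46 CPM at the top.

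The higher concentration gave no detectable further change. *Serpina3n* was lower at 100 than at 30 ng/ml by a log2 fold change of -0.14 (SE 0.07), with a 95% interval from -0.29 to 0.02 (FDR = 0.452, edgeR). *Serpina3i* differed by 0.23 (SE 0.22), with an interval from -0.24 to 0.69 (FDR = 0.716, edgeR). Thus 0 of 2 members passed in that comparison, where 0.579% of all genes did. At an unadjusted p under 0.05, 0 passed too, and DESeq2 and limma called 0. These intervals leave room for a fall of *Serpina3n* to 0.818 of its level at 30 ng/ml, and for a 1.62-fold rise of *Serpina3i*. Against the average of the stimulated groups, the log2 fold change from unstimulated cultures was 0.66 (SE 0.07) for *Serpina3n* and 1.14 (SE 0.22) for *Serpina3i*. Again 2 of 2 rose, where 11.9% of all genes passed and 6.71% rose.

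**Figure D2:**
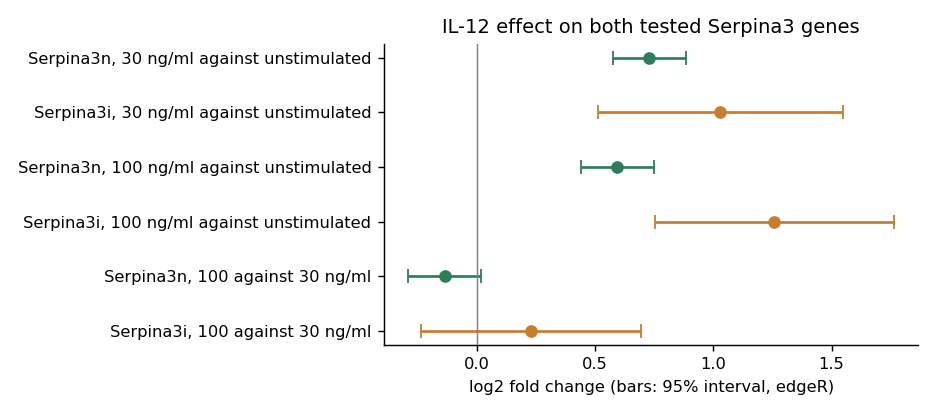
Log2 fold change of *Serpina3n* and *Serpina3i* in the 3 pairwise comparisons, from the edgeR fit of all 15 cultures. Bars are 95% intervals. Those against unstimulated cultures lie above 0 for both genes, and those between the concentrations include 0.

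The reads of *Serpina3i* were a small proportion of those of *Serpina3n*. They amounted to 0.167% to 0.255% of the *Serpina3n* reads in unstimulated cultures, 0.177% to 0.359% at 30 ng/ml and 0.252% to 0.437% at 100 ng/ml. The medians were 0.196%, 0.262% and 0.369%, and the ranges of all groups overlapped. This proportion was not tested.

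Estimates for single transcripts separated the members further. *Serpina3n* had a single listed transcript, Serpina3n-201, tested among 41466 transcripts. Its log2 fold change was 0.73 (SE 0.08) at 30 ng/ml, with an edgeR FDR of 0.00205. It was 0.59 (SE 0.08) at 100 ng/ml, with an FDR of 0.00341. *Serpina3i* had a coding transcript, Serpina3i-201, and one with a retained intron, Serpina3i-202. The coding transcript was estimated at 10.1 to 30.2 reads without IL-12, 24.9 to 46.4 at 30 ng/ml and 26.9 to 53.3 at 100 ng/ml. Its log2 fold changes, 0.88 (SE 0.29, FDR = 0.293) and 1.08 (SE 0.29, FDR = 0.138), did not pass the edgeR test. In simulated data this test missed most changed transcripts, so a missed threshold does not show that the coding transcript stayed the same. The intron-retaining transcript was below the filter, with 0 to 6.69, 6.76 to 17.9 and 6.11 to 22.7 estimated reads in that order. Its share of the *Serpina3i* reads had medians of 18.2%, 25.5% and 28.9%, with wide overlap between groups. Thus 1 of 2 member transcripts tested passed at each concentration, where 0.359% of all transcripts passed at 30 ng/ml (0.244% upwards) and 0.559% at 100 ng/ml (0.355% upwards).

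Compared per length, in TPM, the members spanned a wide range, and *Serpina3n* held nearly the whole output of the cluster. Its mean level was 302 ± 42.3 TPM without IL-12, 509 ± 40.3 TPM at 30 ng/ml and 448 ± 11.6 TPM at 100 ng/ml (SD, n = 5 each). By mean TPM it ranked 463, 275 and 317 among the 35142 genes. *Serpina3i* followed at 0.863 ± 0.275, 2.09 ± 0.774 and 2.41 ± 0.687 TPM (SD, n = 5 each), summed over its transcripts. Its coding transcript averaged 0.508, 0.958 and 1.07 TPM, and the shorter one with a retained intron 0.355, 1.13 and 1.34 TPM. The TPM level of *Serpina3n* was 349, 243 and 186 times this summed level of *Serpina3i* in the respective group means. Every culture kept this order, with *Serpina3n* at least 137 times as high.

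Next came *Serpina3g*, at 0.302 ± 0.152, 0.512 ± 0.257 and 0.464 ± 0.0959 TPM (SD, n = 5 each). Its range stayed below that of *Serpina3i* in each group. *Serpina3c* had 0.110 ± 0.0323, 0.131 ± 0.0288 and 0.146 ± 0.0360 TPM (SD, n = 5 each). Its range overlapped that of *Serpina3g* in unstimulated cultures and lay below it in stimulated ones. *Serpina3m* averaged 0.0452, 0.0698 and 0.0658 TPM, and *Serpina3f* 0.0354, 0.0513 and 0.0798 TPM. The ranges of *Serpina3m* and *Serpina3f* overlapped in every group, as did those of *Serpina3m* and *Serpina3c*. Of the 7 other annotated genes named Serpina3, 4 were in the tables. *Serpina3a* and *Serpina3b* had 0 reads in all cultures, which allows up to 0.0781 to 0.117 CPM (3 reads, counting error only), and *Serpina3j* and *Serpina3k* had at most 1 read in any culture.

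**Figure D3:**
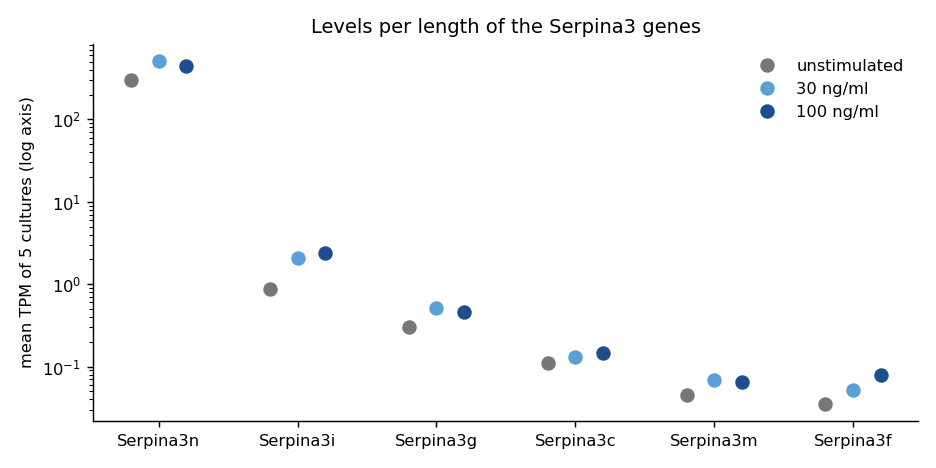
Mean TPM of 5 cultures per group for the 6 members with transcripts in the tables, on a log axis. *Serpina3n* lies between 302 and 509 TPM, *Serpina3i* between 0.863 and 2.41 TPM and the other 4 below 0.6 TPM.

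Summed over all Serpina3 genes in the tables, expression was 362 ± 43.9 CPM without IL-12, 600.5 ± 47.2 CPM at 30 ng/ml and 547 ± 26.6 CPM at 100 ng/ml (SD, n = 5 each). Between 99.42% and 99.74% of these reads came from *Serpina3n* in any culture. Without *Serpina3n*, the sum was 1.04 to 1.54 CPM in unstimulated cultures, 1.55 to 3.48 CPM at 30 ng/ml and 2.08 to 3.30 CPM at 100 ng/ml. These ranges touch but do not overlap between stimulated and unstimulated cultures, and most of this remainder was *Serpina3i*.

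For the 4 scarce members the depth limited what could be seen. *Serpina3g* had 7, 7, 4, 11 and 8 reads in unstimulated cultures, 6, 11, 19, 15 and 14 at 30 ng/ml, and 15, 7, 15, 10 and 16 at 100 ng/ml. The groups overlapped. Tested without any filter on low counts, its log2 fold change was 0.85 (SE 0.35) at 30 ng/ml and 0.70 (SE 0.35) at 100 ng/ml, with edgeR FDR of 0.238 and 0.339. *Serpina3c* had 3 to 6, 4 to 6 and 4 to 7 reads per culture, and log2 fold changes of 0.23 (SE 0.40) and 0.42 (SE 0.39). *Serpina3f* had 0 to 2, 0 to 3 and 1 to 4 reads, and *Serpina3m* 0 to 3, 1 to 5 and 0 to 4. None of the 4 passed without the filter, with edgeR FDR of at least 0.180 in every comparison. No change of these genes was thus detected after adjustment over 28762 genes, which does not show that they stayed the same. For *Serpina3g*, averaging the stimulated groups gave 0.77 (SE 0.31) on the log2 scale against unstimulated cultures, so a rise is not excluded. The same measure was 0.33 (SE 0.34) for *Serpina3c*, 0.75 (SE 0.63) for *Serpina3f* and 0.54 (SE 0.80) for *Serpina3m*. A rise of these genes is not excluded either.

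**Figure D4:**
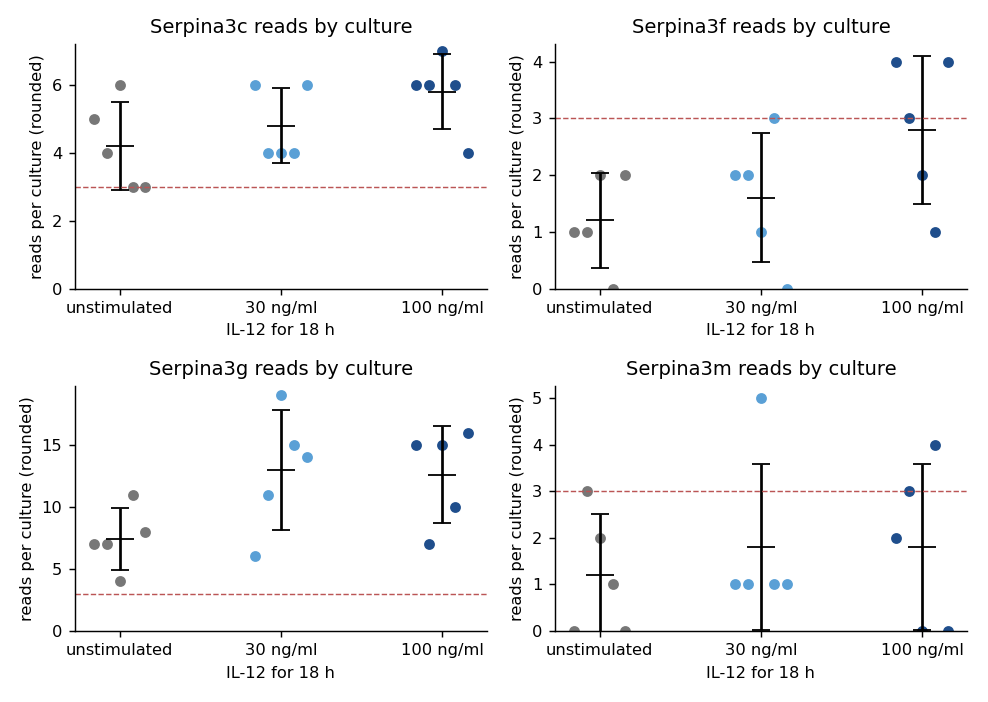
Reads per culture, rounded, of the 4 members below the filter. Points are cultures, the black mark is the mean and the bar the SD of 5 cultures, cut at 0, and the dashed line is at 3 reads. The groups overlap in all 4 panels, and no culture exceeds 19 reads.

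Cell-type markers also differed between the groups in which *Serpina3n* differed. The 11 astrocyte markers summed to 3839 to 4298 TPM in unstimulated cultures, 4550 to 5308 TPM at 30 ng/ml and 4262 to 4718 TPM at 100 ng/ml. Over the mean of both concentrations 5 of 11 rose and 1 fell. Of all 15360 genes 11.9% passed, 6.71% rose and 802 genes fell, the background for later marker counts over that mean as well. The median log2 fold change of the astrocyte markers was 0.13. By the same measure, the fitted log2 fold change of *Serpina3n* was 0.66. Among the markers with a mean of at least 1 CPM, the called changes of largest size were *Aldoc* (0.28), *Gfap* (0.21) and *Aldh1l1* (0.16). *Gjb6*, a connexin below that level and named after its value was seen, rose by 0.98. The 14 microglial and macrophage markers summed to 9003 to 12675, 7184 to 8989 and 8597 to 11288 TPM in that order. Of these, 6 fell and 0 rose, among them *Trem2* (-0.37) and *Cd68* (-0.34). By concentration, 9 fell at 30 ng/ml, where 7.87% of all genes passed and 570 of 15360 fell. At 100 ng/ml 0 of these markers passed the edgeR test, with 2 at an unadjusted p under 0.05, where 9.77% of all genes passed. The 12 oligodendrocyte lineage markers summed to 6947 to 10282, 6974 to 8544 and 6220 to 7537 TPM, and 4 fell, among them *Mobp* (-0.29) and *Cspg4* (-0.27). The part of these shifts in the level of *Serpina3n* was not tested. Of the 14 neuronal markers tested, 4 fell and 1 rose, with *Calb1* at -0.54, *Syt1* at -0.49 and *Tubb3* at 0.46. Among 10 fibroblast markers 1 rose and 1 fell, *Pdgfrb* (0.23) and *Fn1* (-0.24), and 2 of 6 endothelial markers fell, *Flt1* (-0.59) and *Vwf* (-0.38). Of 11 T and NK cell markers 2 were tested, and of 8 hepatocyte markers 1. None of these 3 passed the edgeR test, and 1, a hepatocyte marker, had an unadjusted p under 0.05. The median T and NK cell marker was at 0.0571 to 0.0614 TPM.

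The known protease targets of *Serpina3n* were at or near 0 in these cultures, and lysosomal cathepsins were abundant. *Gzmb*, encoding granzyme B, had 0 reads in all cultures, which allows up to 0.0781 to 0.117 CPM. *Elane*, for neutrophil elastase, had at most 1 read and *Ctsg*, for cathepsin G, at most 6. Of the cathepsins, *Ctsb* had 6850 CPM without IL-12 and *Ctsl* 720.1 CPM. *Ctsb* passed at 30 ng/ml (log2 fold change -0.29, edgeR FDR = 0.0405) and not at 100 ng/ml (-0.13), and *Ctsl* passed at neither (-0.10 and 0.01). Of 36 listed proteases 17 were tested, 1 rose and 3 fell over the mean of both concentrations, where 11.9% of all genes passed. Taken singly, the concentrations gave 4 rising and 1 falling at 100 ng/ml, where 9.77% of all genes passed (5.83% upwards). At 30 ng/ml 0 rose and 5 fell, where 7.87% passed (4.16% upwards). *Plau* fell at both, the other calls were on different genes, and each called gene kept its direction at the other concentration. The difference between the concentrations passed the edgeR test for 0 of the 17, with 6 at an unadjusted p under 0.05. The called changes with the largest size were *Plau*, urokinase (-0.50), *Ctss*, cathepsin S (-0.35), and *Ctsa*, cathepsin A (-0.27). The median log2 fold change of the list was -0.01, against -0.0023 over all genes.

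Other acute phase transcripts were higher along with *Serpina3n*. Of 29 listed genes 14 were tested, and 9 rose and 0 fell over the mean of both concentrations, where 11.9% of all genes passed and 6.71% rose. The median log2 fold change was 0.26. *Saa3*, serum amyloid A, had the largest (1.71, edgeR FDR = 2.72e-06), followed by *Steap4*, a metalloreductase (0.87), and *Lcn2*, lipocalin 2 (0.78). The difference between the concentrations passed for 1 of the 14, *Saa3*. It averaged 3.92 CPM without IL-12, 7.44 CPM at 30 ng/ml and 22.4 CPM at 100 ng/ml, with a log2 fold change of 1.59 between the concentrations (edgeR FDR = 3.51e-05). For *Steap4* (FDR = 0.270) and *Lcn2* (FDR = 0.157) it did not pass. Against unstimulated cultures 3 of the 14 rose at 30 ng/ml, where 7.87% of all genes passed, and 8 at 100 ng/ml, where 9.77% did.

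Of 36 genes listed for reactive astrocytes, with *Serpina3n* left out, 35 were tested, 17 rose and 1 fell (median log2 fold change 0.17), where 11.9% of all genes passed and 6.71% rose. *Aspg*, an asparaginase (0.98), *Tgm1*, a transglutaminase (0.97), and *Steap4* (0.87) had the largest called changes. This list shares *Lcn2*, *Steap4*, *Cp* and *Serping1* with the acute phase list.

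Of 42 genes listed for IL-6 type cytokine, IL-12 receptor, STAT3, NF-kB and glucocorticoid signaling, 37 were tested. Of these, 9 rose and 0 fell (median 0.08), where 11.9% of all genes passed and 6.71% rose. The NF-kB cofactor *Bcl3* (0.68), *Socs3*, a feedback inhibitor of IL-6 type cytokine signaling (0.48), and *Tnf* (0.42) led them. *Lif*, an IL-6 family cytokine, rose at 30 ng/ml (0.46, FDR = 0.0251) and missed the threshold at the higher concentration (0.37, FDR = 0.0563, edgeR). *Osmr*, the oncostatin M receptor, had 0.17 (FDR = 0.0473) and 0.15 (FDR = 0.0721). *Stat3* was at 229 CPM without IL-12 and differed by 0.06 and -0.01, which did not pass. The IL-12 receptor subunits were low, with *Il12rb1* at 1.05 ± 0.183 CPM and *Il12rb2* at 3.70 ± 0.261 CPM (SD, n = 5 unstimulated cultures), and did not pass in any comparison.

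**Figure D5:**
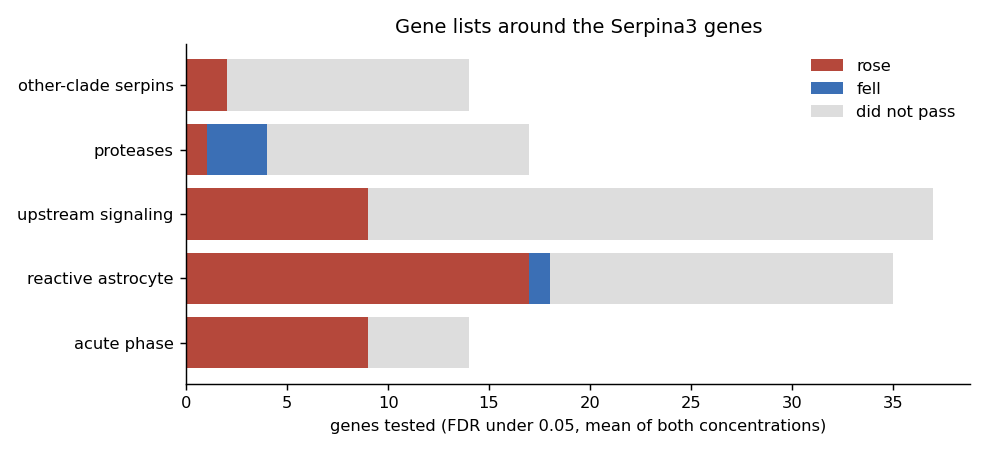
Number of genes tested in 5 gene lists, coloured by whether they rose, fell or did not pass at an FDR of 0.05 over the mean of both concentrations. The acute phase list has 9 of 14 rising and 0 falling, and the protease list 1 rising and 3 falling of 17.

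Most serpins outside the cluster were below the filter. None of the 14 genes of clade A outside the cluster that were in the tables reached the filter. Of the 14 serpins of other clades that were tested, 2 rose over the mean of both concentrations, *Serping1*, the C1 inhibitor (0.21), and *Serpinb8* (0.18), and 0 fell. This is 14.3%, near the 11.9% of all genes that passed. Their median log2 fold change was -0.02. Of 65 annotated genes within 500 kb of the members, 25 were in the tables and 2 were tested, *Clmn* and *Dicer1*. Averaged over the stimulated groups, they differed by -0.22 and -0.04 on the log2 scale, and 0 of 2 passed the edgeR test, with 1 at an unadjusted p under 0.05.

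The genes whose level over the 15 cultures was most like that of *Serpina3n* were taken from 13869 protein-coding genes by Pearson's r of log2 CPM. They were *Trib1*, a pseudokinase (r = 0.98), *Cacng5*, a channel subunit (0.97), *Tubb3*, a tubulin (0.96), *Txnrd1*, thioredoxin reductase (0.96), *Dbndd2* (0.95), *Gfra1*, a receptor for GDNF (0.95), *Bdh1*, an enzyme of ketone metabolism (0.94), and *Tsc22d1* (0.94). Taken as deviations from group means, r was 0.52 to 0.87 for these genes, and highest for *Tubb3*. All 8 rose at both concentrations. *Serpina3i* had r = 0.84, and 0.52 within groups, with 146 of the genes above it. These values are a description, since cultures within a group share their treatment and genes were ranked on the same data.

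The promoters of the members were compared because both tested members rose. RefSeq windows of 250 bases before and 50 after the start, placed on GRCm39 by exact match, were found for 5 of the 7 members. The letters TTCNNNGAA, a STAT core read the same on both strands, occurred in the windows of *Serpina3i*, *Serpina3g* and *Serpina3f*, but not in those of *Serpina3n* and *Serpina3c*. Of all 32851 windows 8.298% held them. The stretches of 29 bases below show this place in each gene, with the match, or the bases aligned with it, in capitals.
Serpina3i, chr12:104229269-104229297, plus strand: taagtgcttgTTCCCAGAAatcacccagt
Serpina3g, chr12:104202363-104202391, plus strand: taagttatagTTCCCAGAAatcacccggt
Serpina3f, chr12:104180672-104180700, plus strand: tcagttctatTTCCTAGAAatcacccatt
Serpina3n, chr12:104372834-104372862, plus strand: caaatccatgTTACCAGAAatcatccagt
Serpina3c, chr12:104120233-104120261, minus strand: taaatccataTTACCAGAAatcatccagt
Counted from the first capital, *Serpina3n* differed from *Serpina3i* by C3A, so 8 of 9 bases were the same. The match lay 102 to 94 bases before the RefSeq start in *Serpina3i* and 33 to 25 before it in *Serpina3g*, and the aligned bases 123 to 115 before it in *Serpina3n*. The RefSeq start of *Serpina3n* is 157 bases inside the M39 gene, so the stretch printed for it lies before the start by RefSeq and inside the gene by M39. The stretch printed for *Serpina3c* also lies inside its M39 gene, which spans chr12:104110471-104141177 on the minus strand. It lies before the start of the M39 transcript Serpina3c-201, at base 104120150. An NF-kB motif was found in *Serpina3i* and *Serpina3g* and in 4.505% of all windows, and no match to the C/EBP letters TTGCGNAA in any of the 5 members, against 0.7975% of all windows. Aligned with the NF-kB match of *Serpina3i*, *Serpina3n* had 9 of 10 bases the same and differed by G4C. The TATA box letters TATAAA occurred in *Serpina3c* alone among these members, and in 8.319% of all windows. Over the whole window, *Serpina3n* was 93.54% identical to *Serpina3c* and 76.47% to *Serpina3i*. *Serpina3c* had at most 7 reads per culture, and the unstimulated means of the pair were 302 TPM and 0.110 TPM.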

How the data were processed

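Libraries were made with a stranded mRNA kit from 15 cultures. Per the labels and the study's methods, the authors used FastQC 0.10.0, STAR 2.7.8a on GRCm39 and featureCounts. The deposited tables have another layout, with estimated counts and TPM for 121798 Ensembl transcripts per culture, and the program behind them is not given in the sources used here. The authors' estimated counts and deposited TPM values were summed to genes by GENCODE M39 transcript IDs without version (98.96% matched, leaving 0.677% to 0.712% of reads out) and the counts rounded. How reads were divided between similar Serpina3 transcripts was set by that program.

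Genes that reached 1 CPM in 2 or more cultures entered the quasi-likelihood test of edgeR 4.0.16 (R 4.3.3), in a fit of all 3 groups with TMM factors, and called at an FDR under 0.05. The SE is the log2 fold change divided by the root of F. DESeq2 1.42.0 and limma 3.58.1 served as alternatives. The fit was tested on simulated data with known changes. At gene level it recovered most of them. At transcript level it recovered only a minority, which fell short of the recovery first required, and that requirement was then kept for genes alone while the transcript test was left as it was. A transcript that did not pass is therefore not evidence of no change. CPM values shown are TMM-scaled. Intervals and floors of 3 reads cover counting error or the spread between cultures only.

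The members and gene lists were chosen with earlier results of these data known. From each list, the 3 called genes with the largest change over the mean of both concentrations and a mean of at least 1 CPM were named, besides *Gzmb*, *Elane*, *Ctsg*, *Ctsl*, *Ctsb*, *Il12rb1*, *Il12rb2*, *Stat3*, *Osmr* and *Lif*. Some marker genes that this rule selects are not reported here. The 8 genes most like *Serpina3n* were named by Pearson's r. *Gjb6*, *Cp*, *Clmn* and *Dicer1* were named after their values were seen. Deviations of same-numbered cultures of different groups had r from -0.183 to 0.264 over 15 pairs (median -0.0188). The 60 other pairs across groups had r from -0.239 to 0.312 (median 0.00244). These correlations cannot show whether cultures shared a preparation. Replicate libraries differed by more than sampling noise (chi-square per degree of freedom at least 4.98).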

Additional observations from a re-analysis of the deposited data

Results flagged for a closer look

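*Serpina3m* in culture 3 at 30 ng/ml stood apart from the other cultures of its group, at 0.187 CPM (5 reads) against 0.0330 to 0.0353 CPM (1 read each). It was the only value that stood apart among the 21 groups examined. How often counts this low are marked so by chance was not tested.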

How the results depend on the processing

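The count of members that rose stayed at 2 at 100 ng/ml under 26 alternatives. At 30 ng/ml it was 1 in place of 2 with protein-coding transcripts only and with an FDR under 0.01. In both *Serpina3i* was lost, at a log2 fold change of 0.87 (FDR = 0.0504) in the former and 1.03 (FDR = 0.0157) in the latter, while *Serpina3n* stayed called. Between the concentrations the count stayed at 0, and for transcripts at 1, 1 and 0 under 18 alternatives. Leaving out each culture in turn gave log2 fold changes of 0.53 to 0.65 for *Serpina3n* and 1.14 to 1.37 for *Serpina3i* at 100 ng/ml, and of 0.67 to 0.79 and 0.84 to 1.15 at 30 ng/ml, with each FDR at most 0.0457 (edgeR). With the replicate number as a block, the counts were 2, 2 and 0 and no call changed. The labels do not say whether the numbers pair the cultures. The summed Serpina3 level kept its direction as TPM and without any culture. The share of the main *Serpina3n* transcript was not run, since the tables list 1 transcript for that gene. Depth limited *Serpina3c*, *Serpina3f*, *Serpina3g* and *Serpina3m*.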
